A study of Canis lupus familiaris with 25 samples.

Results

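Malignant aspirates of the canine prostate were compared with non-malignant ones. The samples were chosen by their labelled sample type, fine-needle aspirate (FNA), and were divided by their labelled diagnosis, which gave 7 of the 25 samples of the series. The study asked whether material drawn through a needle under ultrasound guidance (US-FNA) can serve for transcriptome sequencing next to cytology, the reading of smeared cells under a microscope. The other 18 samples were prostate tissues, 9 malignant and 9 non-malignant, taken after death. All 9 non-malignant tissues came from intact dogs, aged 1 to 16 years, while 6 of the 9 malignant ones came from neutered dogs and all 9 from dogs aged 8 to 12 years.

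The malignant group held 2 aspirates diagnosed by cytology as prostate carcinoma. US-4 came from a neutered Miniature Pinscher aged 9 years and US-3 from a neutered mixed-breed dog aged 10 years. The non-malignant group held 5 aspirates read as normal to hyperplastic, all from intact males. US-13 was from a mixed-breed dog of 10 years, US-7 from a mixed-breed dog of 5 years and US-15 from a Long-Haired Collie of 7 years. US-32 was from a Dobermann of 4 years and US-40 from a mixed-breed dog of 8 years. Diagnosis and neutering therefore cannot be told apart among the aspirates. The study's sample table lists each aspirate under a separate dog. The dog of US-3 was listed as euthanised with matching tissue and an additional aspirate. That tissue may be 1 of the malignant tissues used for comparison, and PT-6 has the breed, age and reproductive status of US-3. An aspiration was repeated right after euthanasia in that dog, and whether US-3 is the earlier or the repeated aspirate is not stated, although the labels describe aspirates as taken in life. No RNA integrity value was available for US-3. By the sample table it is the malignant aspirate that the study kept for sequencing because its electropherogram was judged acceptable. The deposited files number the aspirates otherwise than the labels do, in US-3 as in the others, and the labels were followed.

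Reads counted on genes amounted to 4052454 in US-4 and 3966984 in US-3. In the non-malignant aspirates they were 3355926 (US-13), 4996566 (US-7), 4704786 (US-15), 4239531 (US-32) and 4893225 (US-40). Both malignant depths lay within the range of the other 5. Expression is given as CPM, the read count per 1000000 reads of a library size that was scaled by the TMM method. Malignant aspirates had the larger TMM factors, 1.31 in US-4 and 1.21 in US-3, against 0.809 to 1.02 in the others.

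The normal prostate is a gland whose luminal epithelial cells, driven by androgens, release proteases and phosphatases into the seminal fluid. In dogs the kallikrein KLK2 is the arginine esterase that dominates this secretion. Carcinomas of the canine prostate often lose secretory differentiation and divide more, and castration by itself makes the normal gland shrink. In samples of mixed cells, fewer cells of a type and less RNA per cell cannot be told apart.

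Across the transcriptome, 4213 of 12780 genes tested (33.0%) passed an edgeR false discovery rate (FDR) under 0.05. Of these, 2375 were higher in the malignant aspirates (18.6% of the genes tested) and 1838 were lower (14.4%). The called changes were large. Their median log2 fold change was 2.90 among the higher genes and -2.57 among the lower ones, and 2819 of the calls exceeded 4-fold. The median over all genes tested was 0.08. In the main edgeR fit no gene reached the stricter FDR of 0.00001, and the smallest FDR was 0.000233. Without the filter on low counts 172 genes reached it, and in a fit of all 4 groups 22 did. In the main fit 5725 genes had an unadjusted p under 0.05, and DESeq2 called 1029 genes at the stricter threshold. Since 2 malignant samples enter each mean, the values were also compared sample by sample. Both malignant aspirates lay above all 5 others in 2757 of the genes tested (21.6%) and below all 5 in 2924 (22.9%).

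All 8 cancer-related genes that the study paired with an identifier were called, 5 as higher and 3 as lower, against a background of 33.0%. In each of the 8 genes the malignant and the non-malignant aspirates did not overlap. The same held for 44.5% of all genes tested and for 90.3% of the called genes. The study named these genes from the same samples, so the count is not independent evidence of their direction.

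The secretory genes fell. KLK2 (ENSCAFG00000002907) measured 3.40 CPM in US-4 and 3.95 CPM in US-3. The non-malignant values were 310024 (US-13), 401149 (US-7), 541628 (US-15), 442123 (US-32) and 390502 CPM (US-40). Every non-malignant aspirate was thus far above both malignant ones, and within each group the values were close. This gave a log2 fold change of -16.77 (SE 1.41, edgeR FDR 0.000354), the most negative of all genes tested.

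KLK4 (ENSCAFG00000002905), a further kallikrein protease of the prostate, had 1.13 CPM in US-4, from 6 counts, and 0.415 CPM in US-3, from 2 counts. The non-malignant aspirates had 264 (US-13), 187 (US-7), 203 (US-15), 465 (US-32) and 161 CPM (US-40). Both malignant values were near the limit of detection and all 5 others were not. The mean of the non-malignant aspirates was 616 times the value of US-3, with a 95% counting interval of 171 to 5088, and 226 times the value of US-4 (104 to 616). In the fit, KLK4 had a log2 fold change of -8.29 (SE 0.79, edgeR FDR 0.000458), of -9.24 without US-4 and of -7.79 without US-3. KLK2 and KLK4 belong to a family of similar genes, and reads that match several members could have been lost or assigned to the wrong gene.

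ACPP (ENSCAFG00000006237) encodes prostatic acid phosphatase, a classic secretory enzyme of the gland. It measured 8.49 CPM in US-4 and 1.04 CPM in US-3, so the malignant aspirates differed 8.18-fold from each other. The other aspirates had 86.7 (US-13), 173 (US-7), 168 (US-15), 162 (US-32) and 247 CPM (US-40). Even the lowest of these was above US-4. ACPP had a log2 fold change of -5.11 (SE 0.86, edgeR FDR 0.00366). The size depended on which malignant aspirate was used, with -7.37 for US-3 alone (without US-4) and -4.30 for US-4 alone (without US-3). In such fits the lone aspirate is assumed to vary like the other 5.

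**Figure D1:**
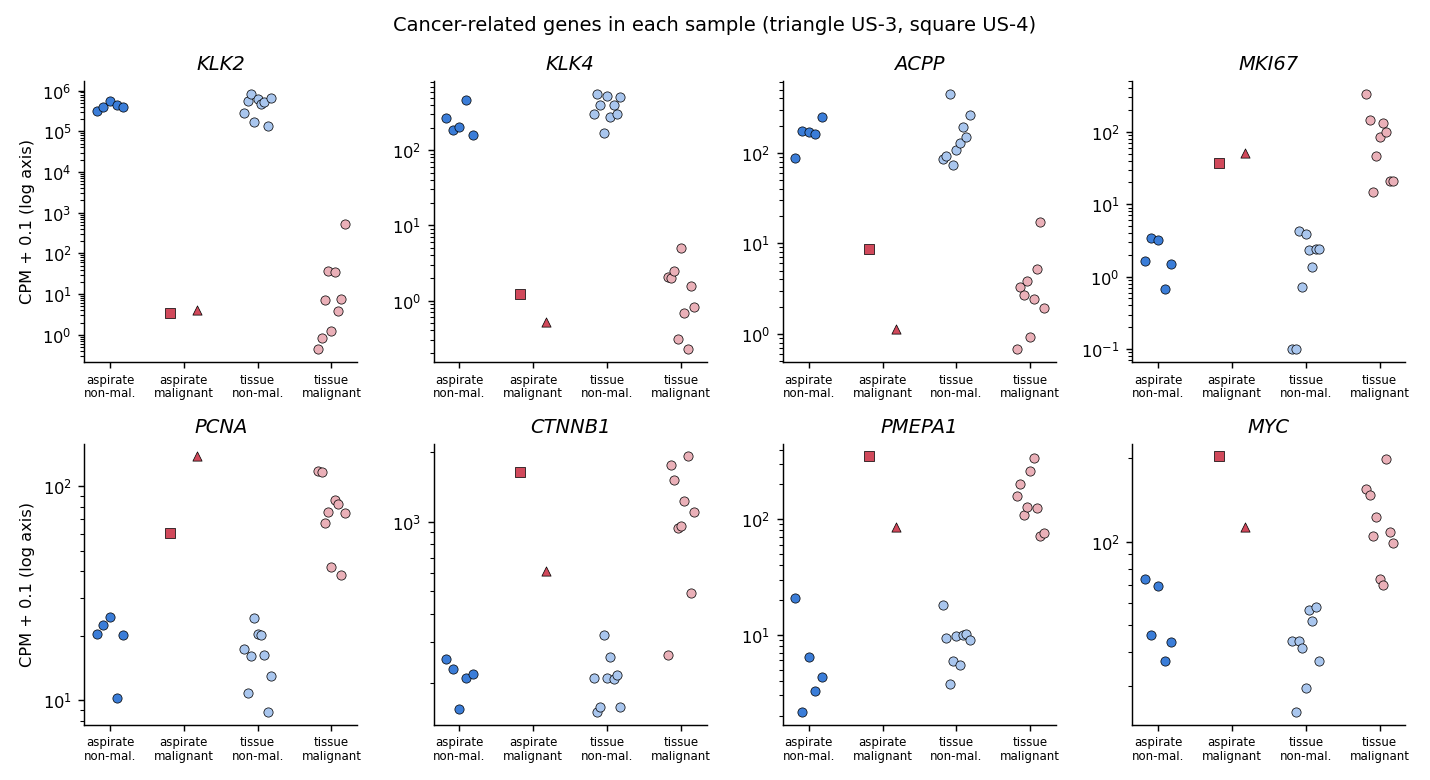
CPM plus 0.1 on a log axis for the 8 cancer-related genes, with each point 1 sample, in non-malignant and malignant aspirates (US-3 as a triangle, US-4 as a square) and in the 9 non-malignant and 9 malignant tissues. Aspirates and tissues were scaled separately. KLK2, KLK4 and ACPP are lower and the other 5 genes higher in both malignant aspirates than in all 5 non-malignant ones.

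KLK2 also set the make-up of the libraries apart. It alone took 29.6% of the counts on genes in US-13 (95% Wilson interval 29.6 to 29.7), 39.1% in US-7 (39.1 to 39.2) and 43.8% in US-15 (43.8 to 43.9). It took 36.0% in US-32 (36.0 to 36.1) and 40.0% in US-40 (40.0 to 40.1). In US-4 its share was 0.000444% (0.000281 to 0.000702) and in US-3 0.000479% (0.000307 to 0.000748). The groups were far apart, and the malignant aspirates could not be separated from each other at this depth. The difference in mean log2 share was -16.31 (two-sided exact permutation test, p = 0.0476). This is the smallest p that 21 arrangements allow, and it became 0.0952 after adjustment over the 2 shares tested. These intervals cover counting error only.

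In US-4, 431 genes together held 50% of the counts and in US-3 535 did. The same share was held by 37 genes in US-13, 40 in US-7, 6 in US-15, 13 in US-32 and 54 in US-40. When KLK2 was left out, the numbers for the non-malignant aspirates became 316, 639, 451, 302 and 816, and both malignant values fell inside that range. Apart from KLK2, the concentration of the counts thus overlapped between the groups, and whether it differed was not tested. The median log2 ratio of the group means over all genes tested was 0.07 with TMM and 0.51 on raw library totals, a shift of 0.44.

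**Figure D2:**
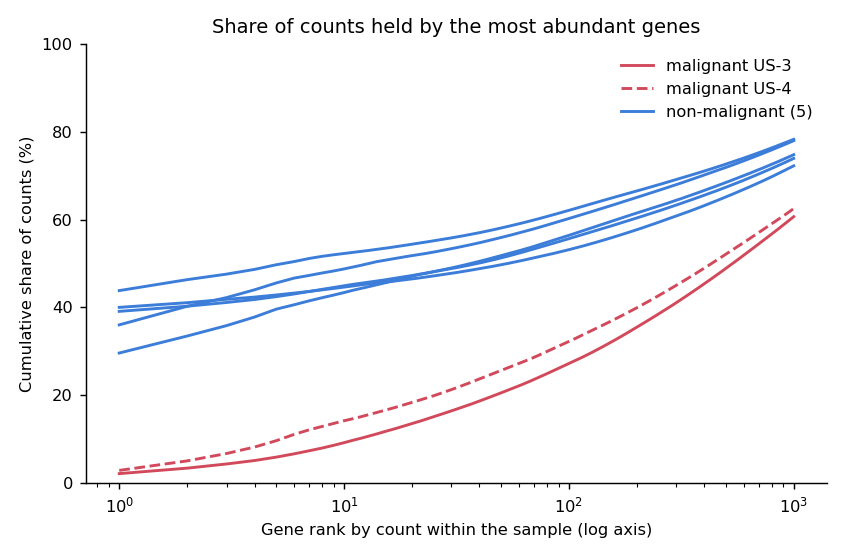
Cumulative share of counts (%) against gene rank on a log axis in the 7 aspirates, with 1 line per sample. The non-malignant lines start between 29.6% and 43.8%, the share of KLK2, whereas the malignant lines start below 3%.

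The proliferation genes rose. MKI67 (ENSCAFG00000013255) encodes Ki-67, a nuclear protein of dividing cells. It measured 36.4 CPM in US-4 and 50.5 CPM in US-3. The non-malignant aspirates had 1.56 (US-13), 3.28 (US-7), 3.15 (US-15), 0.579 (US-32) and 1.40 CPM (US-40). The malignant values were similar to each other and the highest of the others did not come near them. MKI67 had a log2 fold change of 4.42 (SE 0.52, edgeR FDR 0.000977). The non-malignant values rest on between 2 counts (US-32) and 16 counts (US-7).

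PCNA (ENSCAFG00000006030), the sliding clamp of DNA polymerases, measured 60.6 CPM in US-4 and 138 CPM in US-3. It had 20.3 (US-13), 22.4 (US-7), 24.4 (US-15), 10.1 (US-32) and 20.1 CPM (US-40) in the non-malignant aspirates. US-3 was 2.27 times as high as US-4, and US-4 was still above each of the 5. The log2 fold change of 2.35 (SE 0.40, edgeR FDR 0.00368) was 1.63 without US-3 (FDR 0.0195).

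The genes of signalling and growth control were higher as well, with US-4 above US-3 in each. CTNNB1 (ENSCAFG00000005204) encodes beta-catenin, which acts in cell adhesion and in Wnt signalling. It measured 1648 CPM in US-4 and 614 CPM in US-3, against 255 (US-13), 231 (US-7), 154 (US-15), 210 (US-32) and 218 CPM (US-40). The non-malignant values were tightly grouped and both malignant values lay above them. A log2 fold change of 2.41 (SE 0.39, edgeR FDR 0.00313) resulted, which was 1.45 without US-4 (FDR 0.0116).

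PMEPA1 (ENSCAFG00000031382) encodes a membrane protein that is induced by androgens and by TGF-beta and dampens TGF-beta signalling. It measured 348 CPM in US-4 and 85.3 CPM in US-3. The non-malignant aspirates had 20.9 (US-13), 2.05 (US-7), 6.30 (US-15), 3.18 (US-32) and 4.19 CPM (US-40). US-13 stood above the other non-malignant aspirates but below both malignant ones. The log2 fold change was 4.91 (SE 0.83, edgeR FDR 0.00371). It varied with single samples, from 3.49 without US-4 to 5.60 without US-3 and 5.79 without US-13.

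MYC (ENSCAFG00000001086), a transcription factor that drives growth, showed the smallest change of the 8 genes. It measured 203 CPM in US-4 and 113 CPM in US-3. The other aspirates had 73.3 (US-13), 45.8 (US-7), 69.1 (US-15), 37 (US-32) and 43.5 CPM (US-40). Both malignant values lay above all of these, US-3 by the narrower margin. The log2 fold change was 1.57 (SE 0.36, edgeR FDR 0.0121). Without US-4 it was 1.00 and no longer passed the threshold (FDR 0.0833), the highest FDR of the 7 fits that left out an aspirate, of which the lowest was 0.00608 without US-3.

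Among the genes known by identifier alone, some were detected in only 1 of the groups. The identifiers could not be paired with names, so they are given as they stand in the files. ENSCAFG00000005458 had 642 (US-13), 592 (US-7), 441 (US-15), 905 (US-32) and 582 CPM (US-40) in the non-malignant aspirates and 0 counts in both malignant ones. Taking 3 counts per library as the floor, it was at least 1064-fold lower in the malignant aspirates (edgeR FDR 0.000234). ENSCAFG00000014889 had 282 (US-13), 677 (US-7), 405 (US-15), 372 (US-32) and 229 CPM (US-40), and again 0 counts in both malignant aspirates, which makes it at least 661-fold lower (FDR 0.000370). Malignant tissue was lower as well, with log2 fold changes of -7.24 (FDR 6.54e-06) and -3.75 (FDR 0.0169), respectively. For ENSCAFG00000014889, however, the malignant tissue PT-8 from an intact dog had 277 CPM, inside the range of non-malignant tissue (260 to 718). With only the intact dogs among the malignant tissues, its log2 fold change was -2.19 and was not called (FDR 0.183).

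The counterparts in the other direction were uneven. ENSCAFG00000001281 measured 631 CPM in US-4 and 12.5 CPM in US-3, and had no count in the 5 non-malignant aspirates. Against the same floor it was at least 829-fold higher in US-4 and at least 16.4-fold higher in US-3 (edgeR FDR 0.0120). ENSCAFG00000007945 measured 212 CPM in US-4 and 9.14 CPM in US-3, again with no count in the others. It was at least 278-fold higher in US-4 and at least 12.0-fold higher in US-3 (FDR 0.0109). Both genes were present in both malignant aspirates, but at levels 50.7-fold and 23.2-fold apart.

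A wider count, made after the values were seen and carrying no test, gave 42 genes with at least 5 CPM in each non-malignant aspirate and 0 counts in both malignant ones. This was 0.527% of the 7971 genes at that level in the non-malignant group. The reverse pattern, at least 5 CPM in both malignant aspirates and no count in the other 5, was found for 11 genes, or 0.127% of 8642. US-4 had the higher value in 10 of the 11. Of the 42 genes, 39 could be tested in tissue. There 35 were called as lower in malignant samples (25.6% over all genes tested) and the remaining 4 were not called, with a median log2 fold change of -6.12. The 42 genes were chosen for their level in non-malignant aspirates and may pass the filter on low counts through non-malignant tissue. The share over all genes is therefore not a matched background, and the 35 calls describe these genes without testing them. Only 1 of the 11 passed the filter on low counts in tissue, and it was called as higher there. Failing this filter does not mean absence from malignant tissue. ENSCAFG00000001281 was not tested there, yet had 0 to 1433 CPM in malignant tissue (median 91.3) and 0 CPM in every non-malignant tissue. ENSCAFG00000007945, also not tested, had 1.19 to 43.8 CPM in malignant and 0 to 1.66 CPM in non-malignant tissue.

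Globin transcripts varied widely among the non-malignant aspirates, whereas US-3 was 1.13 (HBD) to 2.36 times (HBM) as high as US-4. Haemoglobin transcripts come from red cells. The study also scored the blood seen in the samples, and these scores were not used here. HBB (ENSCAFG00000030286), a beta-globin, measured 11123 CPM in US-4 and 17794 CPM in US-3. The other aspirates had 9396 (US-13), 3278 (US-7), 3525 (US-15), 1988 (US-32) and 111 CPM (US-40). Both malignant aspirates were the highest, yet US-13 came close to US-4 and US-40 lay 84.6-fold below US-13. The log2 fold change of 1.99 (SE 1.06, edgeR FDR 0.179) did not pass the test.

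The other 4 globin genes, HBA1, HBA2, HBD and HBM, gave log2 fold changes of 1.70, 1.82, 1.39 and 2.04 and FDRs from 0.186 to 0.423, so that 0 of 5 globin genes were called, against 33.0% of all genes tested. Reads that match both of the near-identical alpha-globin genes HBA1 and HBA2 could have been lost or assigned to the wrong gene, and likewise for HBB and HBD. In HBA2, HBD and HBM the groups overlapped. Without US-13 the log2 fold changes of HBA2 and HBM became 2.97 and 3.12 and passed the threshold (FDR 0.0448 and 0.0421). Without the same sample, HBA1 and HBB reached 2.44 and 2.71 without passing it. HBD moved most without US-7, to 2.17, and HBM fell to 1.28 without US-3.

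Together the 5 globin genes took 2.98% of the counts in US-4 (95% Wilson interval 2.96 to 2.99) and 3.98% in US-3 (3.96 to 4.00). They took 1.99% in US-13 (1.98 to 2.01), 0.701% in US-7 (0.693 to 0.708) and 0.460% in US-15 (0.454 to 0.466). US-32 had 0.351% (0.345 to 0.356) and US-40 0.0245% (0.0231 to 0.0259). Both malignant shares were above all 5 others, and the mean log2 share was higher by 3.28, with a two-sided exact permutation p of 0.190. This difference was 2.60 with KLK2 left out of the denominator (p = 0.190), 2.32 without US-40 and 3.91 without US-13 (p = 0.133 in both, exact permutation tests). HBB held the most counts of the 5 in each aspirate, and none of the 5 was at 0 in any. When the 5 globin genes were left out before normalisation, 4216 genes were called, against 4213 with them. Markers of white cells and platelets could not be paired with identifiers, so the part of blood cells in the comparison was not tested.

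**Figure D3:**
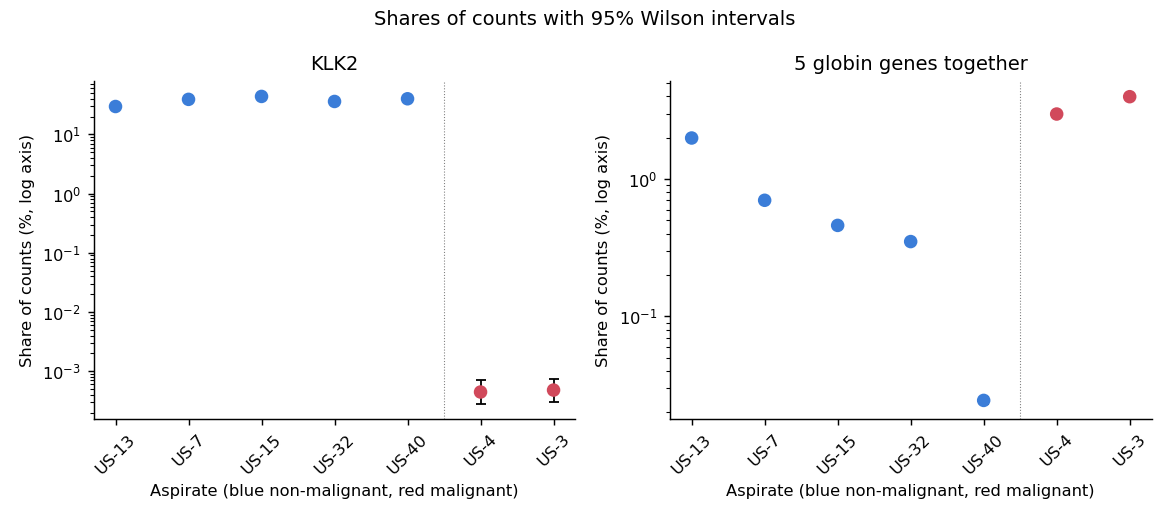
Share of counts (%, log axis) of KLK2 and of the 5 globin genes together in each of the 7 aspirates, with 95% Wilson intervals that are mostly smaller than the points. The KLK2 shares of the groups are far apart, whereas the globin share runs from 0.0245% in US-40 to 1.99% in US-13 among the non-malignant aspirates, below 2.98% and 3.98% in the malignant ones.

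The 2 malignant aspirates were less alike than any pair of non-malignant ones. US-3 and US-4 differed more than 4-fold in 1855 of the 12780 genes tested (log2 CPM, prior count 2). Of these, 1342 were higher in US-3 and 513 were higher in US-4. The 10 pairs of non-malignant aspirates differed that much in 283 to 1243 genes (median 578), with US-13 and US-40 the farthest apart. Pairs across the diagnoses differed in 2941 to 3937 genes, so each malignant aspirate was closer to the other than to any non-malignant one. These counts describe 2 dogs and carry no test. The source of the difference was not tested, and the open points on the time of sampling and the RNA integrity of US-3 bear on all comparisons of US-3 with US-4.

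In 3803 of the 4213 called genes (90.3%) both malignant aspirates lay beyond all 5 others on the same side, compared with 44.5% of all genes tested. The calls were made from the same samples, so the following counts describe the calls and do not test them. Of the 1838 genes called as lower, 1834 were below all 5 non-malignant aspirates in both US-3 and US-4. Of the 2375 genes called as higher, 1969 were above all 5 in both. In 350 genes only US-3 was above, by a median of 4.72 on the log2 scale over the mean of the 5, while US-4 differed from that mean by a median of -0.09 and was below all 5 in 59 of the genes. In a further 56 genes only US-4 was above. A high value in 1 of 2 samples lifts their mean more than a low value in 1 reduces it, so these numbers do not compare the higher with the lower genes.

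Of these 350 genes, 287 were tested in tissue. There 202 (70.4%) were called as higher in malignant samples, 11 as lower and 74 not at all. Of the 1969 genes with both aspirates above, 1781 were tested in tissue and 1525 (85.6%) were called there as higher. The share over all genes tested in tissue was 31.6%. Both sets were chosen as called higher in aspirates, so this share is not a matched background. US-13 was the highest of the 5 non-malignant aspirates in 228 of the 350 genes and in 762 of the 1969. What sets the group of 350 genes apart was not tested.

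**Figure D4:**
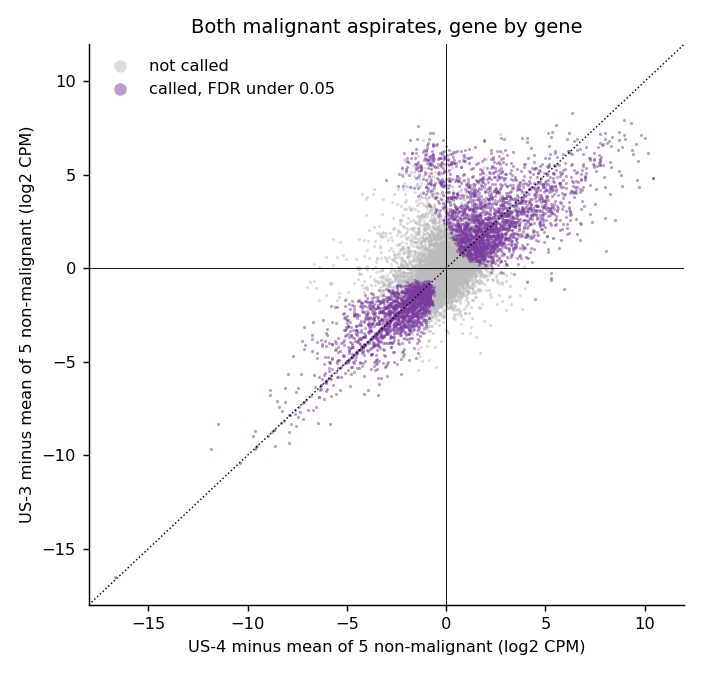
Difference of US-3 (vertical) and of US-4 (horizontal) from the mean log2 CPM of the 5 non-malignant aspirates, with 1 point for each of the 12780 genes tested, called genes in purple and equality as a dotted line. Most called genes lie on the same side of 0 in both aspirates, and some are high in US-3 and near 0 in US-4.

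The same contrast was available in tissue, in libraries that the aspirates do not share. There 6944 of 12144 genes tested (57.2%) were called at an edgeR FDR under 0.05, 3832 as higher (31.6%) and 3112 as lower (25.6%) in the 9 malignant than in the 9 non-malignant tissues. Of the 4213 genes called in aspirates, 3744 were tested in tissue. Among these, 3550 (94.8%) had the same direction in tissue, compared with 80.2% of all 11632 genes tested in both. A call in tissue in the same direction was made for 1766 of 2123 higher genes and for 1245 of 1621 lower genes. A call in the opposite direction was made for 25 and 7, respectively. Opposite calls became more frequent when US-4 was left out. The share of all genes tested in both with the same direction was then 74.6%, and it was 78.6% without US-3. Across all genes tested in both, Pearson's r of the log2 fold changes was 0.799, a description over genes, which are not independent replicates. The dog of US-3 may be among the malignant tissues, and no fit left out PT-6, so the animals of aspirates and tissue may overlap.

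**Figure D5:**
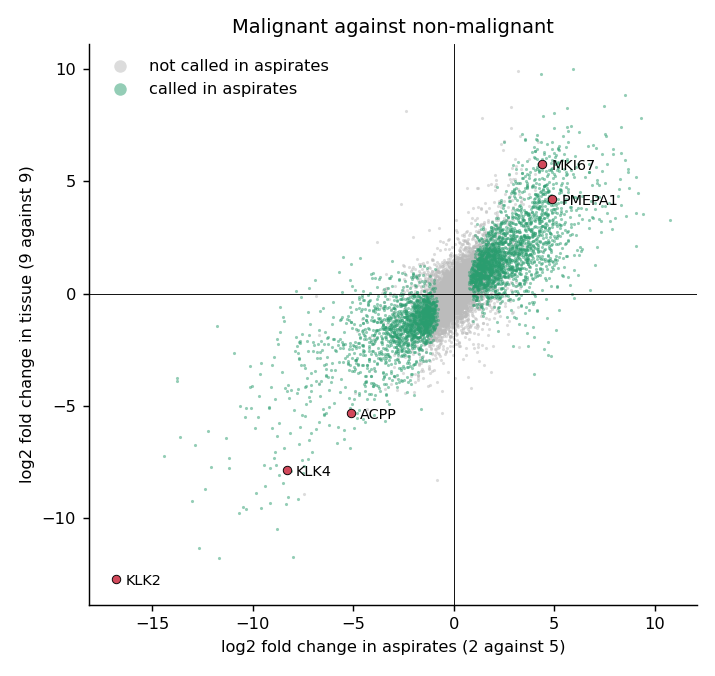
Log2 fold change of malignant against non-malignant samples in tissue (vertical, 9 against 9) and in aspirates (horizontal, 2 against 5) for the 11632 genes tested in both, with genes called in aspirates in green and 5 named genes in red. Most called genes lie in the quadrants where both changes have the same sign, and KLK2 is the lowest point on both axes.

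The 8 cancer-related genes changed in the same direction in tissue as in the aspirates. The study named them among genes changed in both malignant aspirates and malignant tissue of these samples, so this agreement is not independent evidence. The globin genes were low in tissue, with HBB at 0.207 to 42.1 CPM and a log2 fold change of 0.06 (edgeR FDR 0.956). CPM values were scaled separately in aspirates and in tissue, so small differences between the sample types cannot be read from them. KLK2 had a median of 7.20 CPM in malignant tissue (0.346 to 534) and 510246 CPM in non-malignant tissue (138415 to 833629). The ranges did not overlap, and the log2 fold change was -12.70 (edgeR FDR 5.89e-06). MKI67 had a median of 83.5 CPM in malignant (14.6 to 333) and 2.24 CPM in non-malignant tissue (0 to 4.20), a log2 fold change of 5.75 (FDR 3.08e-06). Both malignant aspirates lay inside the range of the malignant tissues in these genes. The same held for KLK4, ACPP and CTNNB1, whose malignant tissues ranged from 0.126 to 4.91, from 0.577 to 17.1 and from 264 to 1918 CPM. In the other 3 genes 1 malignant aspirate lay above the highest malignant tissue, and whether this holds under a common scaling was not tested. These were PCNA in US-3 (138 against 118 CPM), PMEPA1 in US-4 (348 against 336) and MYC in US-4 (203 against 198).

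In 3 of the malignant tissues the dogs were intact. KLK2 measured 0.346, 36.9 and 7.42 CPM in these tissues, all far below 138415 CPM, the lowest non-malignant tissue. MKI67 measured 333, 45.6 and 20.8 CPM in them, and PMEPA1 157, 127 and 72.0 CPM, all above every non-malignant tissue. CTNNB1 measured 264, 940 and 489 CPM, of which the first lay within the range of non-malignant tissue (150 to 322 CPM). When only these 3 were compared with the 9 non-malignant tissues, 4747 of 13191 genes (36.0%) were called. Of the aspirate calls, 3954 were tested in this comparison, 3673 (92.9%) had the same direction (78.5% of all genes tested in both) and 2407 were also called in that direction. Both malignant aspirates sequenced came from neutered dogs, so the effect of neutering in the aspirates themselves cannot be told apart from diagnosis.

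Whether the change with diagnosis differed between aspirates and tissue was tested directly with an interaction term, fitted over all 25 samples of the series. The samples were treated as separate animals, although the dog of US-3 may also be among the malignant tissues. It called 202 of 15296 genes (1.32%). In 164 of them the change was more positive in aspirates and in 38 more negative. This split moved with the malignant aspirates, to 38 and 31 without US-3 and to 538 and 39 without US-4, and was 392 and 233 with DESeq2. The sign of the change was opposite in the 2 sample types in 112 genes, and in 83 it was the same but larger in aspirates. None of the 13 named study genes was among the calls, with FDRs from 0.421 for KLK2 to 0.999 for MYC, which does not show that their changes were equal. In 81 of the 202 genes US-3 was more than 4-fold above US-4, and in 20 the reverse held. The count moved with single libraries. It was 577 without US-4, 69 without US-3, 89 without US-7, 83 without US-15, 77 without US-32 and 78 without US-40, whereas it was 202 without US-13.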

How the data were processed

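The authors deposited unnormalised read counts per Ensembl identifier, made with HTSeq from TopHat2 alignments to CanFam3.1 after trimming with Trimmomatic 0.32, per their processing notes. The 5 closing tally rows of each file were left out, and reads on no gene made up 61.9% to 70.3% of all tallied reads in the aspirates. The gene name table at hand matched 0 of the 32220 identifiers, so only the 13 genes that the study pairs with an identifier are named, 8 cancer-related and 5 globin genes. In addition, 2 higher and 2 lower identifiers are given, the calls of largest absolute log2 fold change that averaged 5 CPM or more over the aspirates and whose groups did not overlap. Not every gene the study names is reported here. Gene lists of cell types and pathways held 494 symbols, of which 13 had an identifier, so the lists were used for these genes only.

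The 7 aspirates were tested in a fit of their own in R 4.3.3 with edgeR 4.0.16 (filterByExpr with a minimum count of 10 and minimum total of 15, TMM, quasi-likelihood test, Benjamini-Hochberg FDR under 0.05). Standard errors were derived from the F statistic. Tissue and the interaction were fitted in the same way. The fits of aspirates and of tissue were also run on simulated data, and the outcome is not reported here. Alternatives were DESeq2 1.42.0 (Wald test), its size factors in edgeR, an unfiltered fit, a fit of all 4 groups, KLK2 or the globin genes left out, other thresholds, raw library totals, other prior counts, and each aspirate left out in turn. Shares carry Wilson intervals and were tested by exact permutation (two-sided) with SciPy 1.17.1 and NumPy 2.4.6. The remaining steps used pandas 2.3.3, matplotlib 3.10.9 and Python 3.11.15. No 2 aspirates shared more than 1.40% equal counts among identifiers with 20 or more counts in either. Members and lists were chosen with earlier results of these data known. HTSeq was run with default settings, which count by strand, while the library kit named is not of a strand-keeping version, so genes with an overlapping partner are uncertain.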

Additional observations from a re-analysis of the deposited data

Results flagged for a closer look

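Among 21 values compared within the 5 non-malignant aspirates, 2 stood apart from the rest of the group by Dixon's criterion (0.710 for 5 samples), a criterion that chance meets in about 1 in 20 groups. Both belonged to US-13. PMEPA1 measured 20.9 CPM in US-13, and the gap to the next aspirate was 0.774 of the range of the group. HBA2 measured 6279 CPM in US-13, with a gap of 0.787 of the range. The interaction of diagnosis and sample type called 202 genes, in which the change with diagnosis differed between aspirates and tissue.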

How the results depend on the processing

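The number of genes called between malignant and non-malignant aspirates stayed within 1.5 times of 4213 in every alternative but the stricter threshold. It ranged from 3091 without US-7 to 4162 without US-4 when an aspirate was left out, and was highest with DESeq2, at 4992. At an FDR under 0.00001 it was 0 in the main edgeR fit, 172 without the filter, 22 in the fit of all 4 groups and 1029 with DESeq2. Of the 4213 genes, 1854 were called in the same direction in all 7 fits that left out an aspirate (1024 lower, 830 higher) and 4169 with DESeq2. The non-overlap count ranged from 5908 without US-7 to 8898 without US-4, against 5681 with all 7, since fewer samples overlap less. The interaction count was 625 with DESeq2 and ranged from 69 without US-3 to 577 without US-4. The difference in mean log2 share of KLK2, malignant minus non-malignant, ranged from -16.39 without US-13 to -16.25 without US-15. Without any single non-malignant aspirate the exact permutation p was 0.0667, the smallest that the remaining samples allow. Of 215 alternative values of the 13 named genes and the 4 identifiers, 212 kept direction and side of the threshold, 2 globin values passed it without US-13 (HBA2 and HBM) and 1 no longer passed (MYC without US-4). KLK2 and the globin genes have no value where they were left out. With 2 malignant aspirates of 3966984 and 4052454 counts, changes of genes at a few counts carry wide counting error. No paired analysis was possible because the numbers of the aspirates only name the samples.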
